A study of Homo sapiens with 11 samples.

Results

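Intermediate cassette exons are the skipped exon events that were neither almost always kept nor almost always left out of the mature RNA. They were compared between HCC78 lung adenocarcinoma cells expressing tagged S34F mutant U2AF1 (S34F) and cells expressing tagged wild-type U2AF1 (WT). Members were the unique events with at least 20 reads on each side and a mean PSI of the 2 sides above 0.1 and below 0.9, where PSI (percent spliced in, here a fraction from 0 to 1) is the share of transcripts that include the exon. Of 44898 unique skipped exon events, 36059 had at least 20 reads on each side, and 20335 of these were intermediate. A further 6474 were nearly always included and 9250 were mostly skipped. Members were thus chosen by the same PSI and read values that the comparison uses, so all differences in PSI are given as a description with no test.

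A cassette exon lies between flanking exons that can also be joined directly, so that each transcript either includes or skips it. The 3′ splice site at its start is recognized by the U2AF heterodimer, whose small subunit, U2AF1, contacts the AG dinucleotide at the end of the intron while the large subunit, U2AF2, binds the polypyrimidine tract. Serine 34 lies in a zinc finger of U2AF1 that contacts RNA, and its replacement by phenylalanine recurs in lung adenocarcinomas and myeloid neoplasms. Exons of intermediate inclusion have room to move in both directions.

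RNA-Seq covered 9 libraries of HCC78, a line that carries its own U2AF1 S34F allele and an SLC34A2-ROS1 fusion in every group. The groups were S34F dox+ (2 libraries) and WT dox+ (2), in which doxycycline induced the tagged construct, S34F dox- (1) and WT dox- (2) without doxycycline, and the untransduced parental line without doxycycline (2). The transduced lines were stable subclones of lentiviral transductants, so clone and construct cannot be told apart. By the labels, S34F made up 62% and 65% of the U2AF1 message in the S34F dox+ libraries, 12% and 14% in WT dox+, and 28% to 33% in the other 5, so the comparison is between more and less S34F rather than presence and absence. U2AF1 was at 164 and 223 FPKM (fragments normalized to gene length and library total) in S34F dox+ and at 278 and 299 FPKM in WT dox+. Nothing in the labels says that replicates came from separate cultures.

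The event table holds 1 PSI and 1 read number for S34F and for WT, pooled by the authors, and therefore no replicate error. It does not say which doxycycline status the sides had. Across 6646 host genes with a single symbol, the log2 ratio of S34F to WT reads was correlated with the expression ratio of the dox+ lines (Spearman's rho 0.55) more than with that of the dox- lines (rho 0.128). These genes share the same libraries and are not replicates. One of the 2 libraries behind the S34F side, S34F dox+ replicate 2, stood apart, with 20896 genes at 1 FPKM or above against 13661 to 17716 in the other 8. The PSI of that library alone was not analysed here. Of 11 lineage markers, 8 were above 10 FPKM in every library, among them EPCAM, KRT7, KRT8 and NKX2-1. The surfactant gene SFTPB was between 0.25 and 2.05 FPKM. Of 7 matched markers of blood, endothelial and fibroblast cells, 5 were under 3 FPKM in every library. The summed level of the 7 was 41.6 and 38 FPKM in S34F dox+ and 28.2 and 31.4 FPKM in WT dox+, and CD3E, VWF and COL1A2 were at 1.67 FPKM or less. COL1A1, a fibroblast collagen gene, was at 4.17 and 5.06 FPKM in S34F dox+ and 4.55 and 7 FPKM in WT dox+. CD68 was the highest, at 34.4 and 23.8 FPKM in S34F dox+ and 19.3 and 17.4 FPKM in WT dox+. The part of these markers in the PSI differences was not tested.

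Intermediate exons differed in both directions by similar amounts. The median difference in PSI, S34F minus WT, was 0.01, the quartiles were -0.09 and 0.1, and the SD over exons was 0.161, which is a spread between exons and not a replicate error. A difference of at least 0.10, the size the study used to filter events, was found for 10154 exons (49.9%). Of these, 5353 were higher and 4801 lower in S34F. The study also required a minimum Bayes factor, which was not applied here, so these numbers are not calls by its criteria. Over all 36059 events with enough reads the share at 0.10 or more was 28.8% (15.2% higher and 13.6% lower). The nearly always included and mostly skipped events held 1.9% and 1.2% at this size. Mean PSI limits how far an event can move, so these shares cannot be set directly beside that of members.

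Larger differences were less frequent and stayed balanced. At least 0.20 separated the sides for 2028 exons that were higher in S34F and 1984 that were lower, 19.7% of members beside 11.1% of all events with enough reads. At least 0.30 was reached by 783 higher and 794 lower exons, 7.76% of members beside 4.37% of all. At least 0.50 was reached by 66 higher and 76 lower exons. At the other end, 31.2% of members differed by 0.05 or less.

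**Figure D1:**
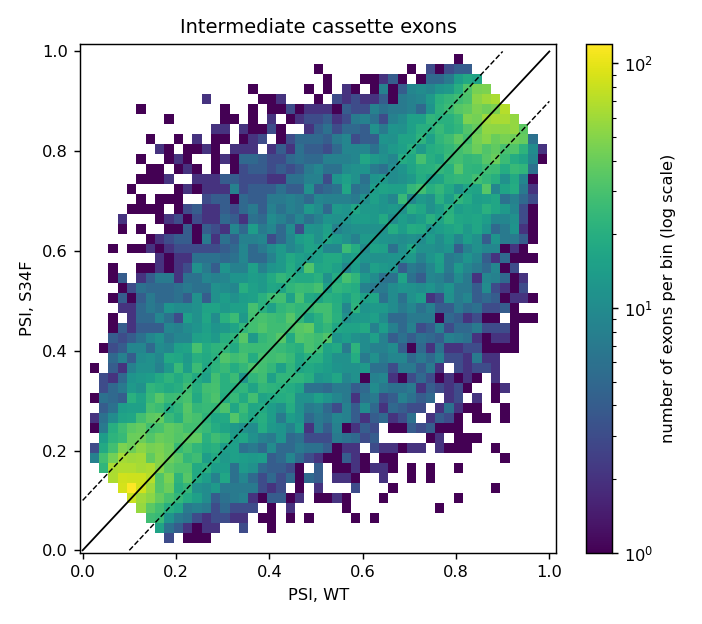
PSI in WT (x axis) against PSI in S34F (y axis) for the 20335 intermediate cassette exons, as the number of exons per square on a log color scale. The solid line marks equal PSI and the dashed lines a difference of 0.10, and 5353 exons lie on or above the upper dashed line and 4801 on or below the lower one.

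The direction depended on where the exon stood between skipping and inclusion. Of the 3510 exons with a mean PSI above 0.1 and up to 0.2, 779 were at least 0.10 higher in S34F and 287 were lower. Of the 2498 exons above 0.2 and up to 0.3, 854 were higher and 436 lower. Between 0.4 and 0.6 the directions were equal, with 1459 higher and 1460 lower of 4931 exons. Above 0.6 the balance turned, with 1045 higher and 1412 lower of 3988 exons up to 0.8 and 359 higher and 580 lower of 2840 exons above it.

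**Figure D2:**
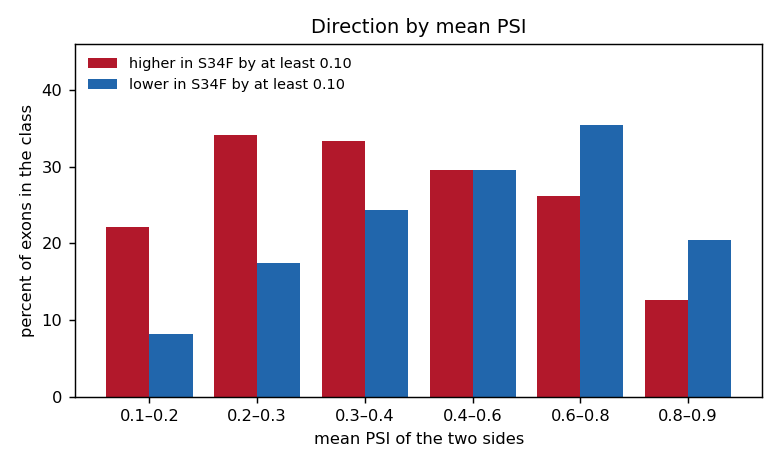
Percent of intermediate exons that were at least 0.10 higher (red) or lower (blue) in S34F, by mean PSI of the 2 sides. Exons with a mean PSI up to 0.4 were more often higher, and those above 0.6 were more often lower, with 1459 and 1460 exons in the class between them.

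In other words, the S34F value was nearer to 0.5 for 11133 exons (54.7%) and the WT value for 8502 (41.8%). Read numbers moved with this pattern. The median was 170 reads in S34F and 244 in WT, and S34F had fewer reads for 18798 of the 20335 exons. Among the 1537 exons with as many or more reads in S34F, the balance was the other way, with the S34F value nearer to 0.5 in 45.9% and the WT value in 50.3%. The S34F value was also nearer to 0.5 in more of the 2004 exons with at least 1000 reads on each side, 50.9% against 44.9%, but not in the 157 of these with at least 5000, where the shares were 43.3% and 54.1%. The part of read number in the direction was not tested.

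The distribution was narrowest among the exons with most reads. Here depth is the smaller of the read numbers of the 2 sides. The SD of the difference was 0.164 for the 4040 exons with 20 to 49 reads and 0.179 for the 3290 with 50 to 99. It narrowed to 0.161 at 200 to 499 reads, 0.128 from 1000 to below 2000, 0.107 at 2000 to 4999 and 0.086 for the 157 exons with 5000 or more. The share that differed by at least 0.10 went with it, from 53% and 54.8% in the lowest classes to 38.7%, 31.9% and 20.4% in the highest. If every read had told inclusion from skipping, counting error alone would give a median SD of 0.108 at 20 to 49 reads, 0.0305 at 200 to 499 and 0.006 at 5000 or more, below the observed SD in each of the 8 classes. This is counting error only, and a lower limit.

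**Figure D3:**
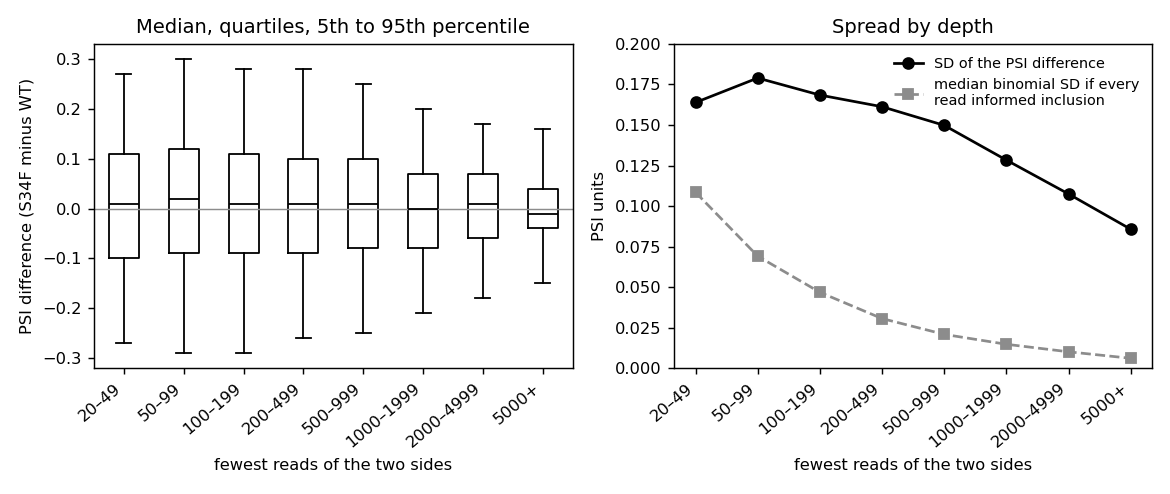
Difference in PSI by depth class, the smaller read number of the 2 sides. Left, boxes give the median and quartiles and whiskers the 5th to 95th percentile of the exons. Right, the SD of the difference (circles) narrowed from 0.179 at 50 to 99 reads to 0.086 at 5000 or more, and the binomial SD if every read were informative (squares) lay below it in every class.

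The read number was nearly the same for all members of many genes. Among the 4625 genes or sets of gene symbols with more than 1 member, the most and the fewest WT reads of a gene's members differed by a median factor of 1.06, and 5801 members shared both read numbers with another member of the gene. All 10 members of ATG7, for example, had 432 or 433 reads in S34F and 694 in WT, whichever exon they described. The factor was within 1.1 in 54.7% of these genes and its upper quartile was 1.82, so read numbers did vary between exons of other genes. The 16 members of ZEB1, for example, had 25 to 129 reads in S34F. How many of the listed reads inform a given exon is therefore unknown. Depth classes also differed in mean PSI, since 44.9% of exons with 20 to 49 reads had a mean PSI of 0.4 to 0.6 and 17.8% of those with 200 to 499. Within a mean PSI above 0.3 and up to 0.7, the SD was 0.194 below 100 reads, 0.213 from 100 to 999 and 0.146 at 1000 or more.

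Just inside the read limit, 643 exons with 20 to 22 reads had an SD of 0.159, and just outside it, 836 with 17 to 19 reads had an SD of 0.15. At the lower PSI limit, 19.8% of 897 exons with a mean above 0.10 and up to 0.12 differed by at least 0.10, and so did 7.06% of 1374 from 0.08 to 0.10. At the upper limit the shares were 19.9% of 717 exons from 0.88 to below 0.90 and 9.78% of 1043 from 0.90 to 0.92.

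The largest positive differences with at least 100 reads on each side were in exons mostly skipped in WT and mostly included in S34F. Exons are named by the listed position of their 3′ splice site (hg19 in the submitters' notes), with 1 event per site. The table gives neither the exon's end nor its coding status. The exon of TVP23C, a Golgi membrane protein gene, also listed under the readthrough gene TVP23C-CDRT4, had a PSI of 0.89 in S34F (118 reads) and 0.13 in WT (187 reads), at position 15406546 of chromosome 17. An exon of CARD8, which encodes an inflammasome sensor, was at 0.79 (197 reads) against 0.12 (296 reads), at position 48741783 of chromosome 19. SMARCAL1, an annealing helicase of stalled replication forks, had an exon at 0.9 (306 reads) against 0.27 (517 reads), at position 217303143 of chromosome 2. These 3 exons were each skipped in most WT transcripts and included in most S34F transcripts.

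The zinc finger gene ZNF426 had an exon at 0.9 in S34F and 0.27 in WT, with 238 and 298 reads. The exon of SLC41A3, of a family of magnesium transporters, was at 0.77 against 0.15. SDCCAG8, a centrosomal protein gene, had one at 0.89 against 0.3, and PTPN4, a tyrosine phosphatase, one at 0.75 against 0.16. Of these 10 genes, DPY19L1, R3HDM2 and the microtubule-affinity kinase gene MARK3 had a difference of 0.58 each. A second event at the R3HDM2 splice site differed by 0.24. In MARK3, PSI was 0.66 in S34F (717 reads) and 0.08 in WT (1030 reads), at position 103964839 of chromosome 14. All of its 4 members lay between 0 and 0.58.

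Large negative differences mirrored these. EIF2AK4, the kinase GCN2 that senses uncharged tRNA, had an exon at 0.1 in S34F (787 reads) and 0.8 in WT (1441 reads), at position 40318178 of chromosome 15. An exon of NPHP4, of the transition zone of cilia, was at 0.21 against 0.89 (187 and 244 reads). Both were included in most WT transcripts.

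ZFP1 had an exon at 0.26 in S34F and 0.91 in WT, and CCNYL1, a cyclin Y-like gene, one at 0.16 against 0.8. In FAM92A1 the values were 0.21 and 0.82, but a second event at the same splice site differed by only -0.06. GRB7, an adaptor of receptor tyrosine kinases, had an exon at 0.26 against 0.87. Negative differences of this size were also in NBPF12, FAM126B and DMPK, the myotonic dystrophy kinase gene, with differences of -0.59, -0.58 and -0.58. NBPF12 and TVP23C, like POM121C and FAM86B1 below, have near-identical copies in the genome, so their reads may be shared with these.

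**Figure D4:**
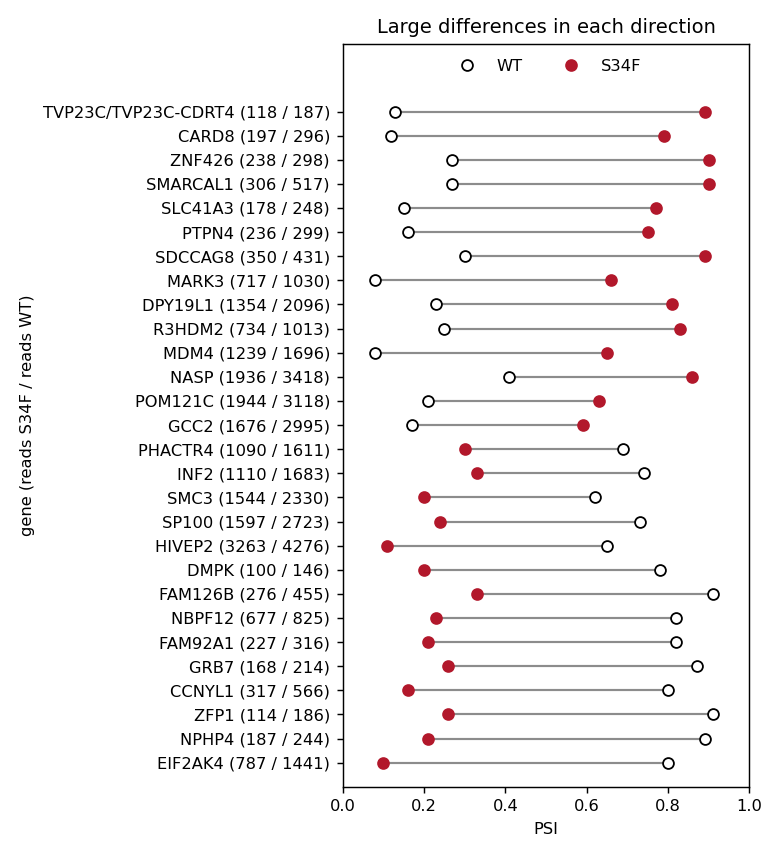
PSI in WT (open circles) and S34F (filled circles) for exons with large differences in each direction, with at least 100 or at least 1000 reads on each side. The reads of each side follow the gene name, and DPY19L1 belongs to both sets.

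Deeply covered genes held shifts nearly as large. With at least 1000 reads on each side, an exon of MDM4, an inhibitor of p53, was at 0.65 in S34F (1239 reads) and 0.08 in WT (1696 reads), at position 204506587 of chromosome 1. DPY19L1 was at 0.81 against 0.23 (1354 and 2096 reads). NASP, a histone chaperone, had an exon at 0.86 against 0.41, and the nuclear pore gene POM121C and the golgin gene GCC2 each had one that was 0.42 higher. In MDM4 a different exon went the other way, by -0.49, so the gene's 5 members spanned both directions.

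Among negative differences at this depth, an exon of HIVEP2, a zinc finger transcription factor, was at 0.11 in S34F (3263 reads) and 0.65 in WT (4276 reads), at position 143104752 of chromosome 6. SP100, a component of PML nuclear bodies, had an exon at 0.24 against 0.73 (1597 and 2723 reads). SMC3, of the cohesin ring, had one at 0.2 against 0.62 (1544 and 2330 reads). INF2, a formin, was at 0.33 against 0.74, and PHACTR4, a regulator of protein phosphatase and actin, at 0.3 against 0.69. SMC3 and INF2 had no other member.

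With at least 5000 reads on each side, 9 exons in 8 genes differed by 0.20 or more. They were singled out after their values were seen. Lower in S34F were the actin-binding protein gene CALD1 (0.52 against 0.83), the fibronectin gene FN1 (0.57 against 0.81), the focal adhesion gene LPP (0.56 against 0.77), the cyclophilin gene PPIA (0.5 against 0.71) and TBL1XR1 (0.64 against 0.84). Higher were the adaptor complex gene AP3D1 (0.56 against 0.36), the histone methyltransferase gene KMT2A (0.42 against 0.17) and the golgin gene GOLGB1 (0.82 against 0.62, and 0.81 against 0.59 at a neighbouring 3′ splice site).

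Where either side had 20 to 99 reads, the largest positive differences were in an exon listed under C1orf220 and TEX35 (0.86 against 0.18, with 47 and 48 reads), in THAP9 (0.82 against 0.15) and in FAM86B1 (0.81 against 0.16). The largest negative ones were in CARF (0.19 against 0.9, with 71 and 115 reads), TRPT1 (0.09 against 0.77) and WDR78 (0.23 against 0.85).

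Of a list of genes taken from the study's text and supplements and from an earlier description of these data, 11 had 53 members, of which 13 were at least 0.10 higher and 15 lower, a share of 52.8% beside 49.9% of all members. Several of these genes were picked with results of the same samples known, so the count is not independent evidence of direction. The tenascin gene TNC had 8 members, from 0.29 in S34F against 0.72 in WT at one exon to 0.81 against 0.61 at another. Of the 6 FN1 members, 3 were lower by at least 0.10 and 1, at 0.19 against 0.04, was higher. MYL9, a myosin light chain gene, had a single member, at 0.38 against 0.74, as had CALD1 (0.52 against 0.83) and the plakin gene DST (0.92 against 0.75).

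ATG7, which encodes an enzyme of autophagy, had 10 members from -0.28 (0.39 against 0.67) to 0.24 (0.78 against 0.54), of which 3 were higher and 1 lower by at least 0.10. The 6 members of the cytokine gene IL32 ran from -0.17 (0.12 against 0.29) to 0.14 (0.39 against 0.25). ZEB1, a transcription factor of epithelial-mesenchymal transition (EMT), had 16 members between -0.35 and 0.21. Differences were under 0.10 for the 2 members of the histone gene H2AFY (0.54 against 0.62, and 0.21 against 0.24). They were also under 0.10 for the single members of STRAP (0.58 against 0.65) and of GOPC and ROS1 (0.26 on both sides). The ROS1 event lay at position 117735708 of chromosome 6. It was not matched to the ROS1 exons by which the study tells its long and short fusion isoforms apart.

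Genes with exons known to be regulated in EMT had 199 members, 47 higher and 53 lower by at least 0.10, or 50.3% beside 49.9% of all members. At 0.30 or more, 2 were higher and 14 lower, beside 783 and 794 of all members. The 2 that were higher were both in MARK3. The 14 that were lower included 2 of BIN1 at 1 splice site (0.55 against 0.9 for the larger) and 1 each of TNC, INF2, ARHGEF11 (0.43 against 0.8), ITGA6 (0.29 against 0.66), MYL9, MPRIP (0.62 against 0.97), MLLT4 (0.39 against 0.73), DNM2 (0.45 against 0.77) and CALD1. Members of this list act in the cytoskeleton, in adhesion and in membrane curvature.

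Splicing factors and RNA-binding proteins had fewer large differences, with 33 higher and 31 lower of 168 members, or 38.1% beside 49.9%. Their median depth was 897 reads beside 169 for all members. RBM6 held the largest in both directions, an exon at 0.6 against 0.12 and one at 0.19 against 0.58. TAF15 had an exon at 0.87 against 0.49, and RBM5 one at 0.48 against 0.8. The median difference of the list was 0.01, as for all members.

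The exons named for the remaining lists had at least 100 reads on each side, and exons with fewer reads could differ by more. Chromatin regulators had 68 higher and 71 lower of 272 members, led at this depth by SMARCAL1 and EHMT1, a histone methyltransferase (0.79 against 0.36), and by HDAC8 (0.47 against 0.88) and KDM6A (0.23 against 0.59). DNA repair genes had 80 higher and 72 lower of 291. Examples are DDB2 (0.75 against 0.36) and RAD54B (0.72 against 0.36). Lower in S34F were the mismatch repair gene PMS1 (0.26 against 0.78) and TDP1 (0.13 against 0.58). A second event at the PMS1 splice site differed by 0.06. Membrane traffic genes had 102 higher and 104 lower of 479, with AP4E1 (0.73 against 0.26) and the mitochondrial fission gene DNM1L (0.68 against 0.32) on one side and SNX30 (0.41 against 0.92) and TBC1D31 (0.16 against 0.58) on the other. ZNF genes had 214 higher and 160 lower of 711, 52.6% in all, with ZNF426 and ZNF613 (0.66 against 0.19) highest and 2 exons of ZNF615 (0.07 against 0.63, and 0.35 against 0.88) lowest among those with at least 100 reads on each side. In these 4 lists, 43% to 52.6% of members differed by at least 0.10, beside 49.9% of all members (26.3% higher and 23.6% lower). The lists were not tested against this share.

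Exons that share a 3′ splice site were more alike than exons that neighbour each other. Of the 18342 splice sites with a member, 1663 were in more than 1 member, because the flanking exons differed. All members of such a site were at least 0.10 higher at 187 sites and lower at 159, and members passed 0.10 in both directions at 140. Between the 2 events with most reads of a site, the Pearson correlation of the differences was 0.38. Events share reads at such a site, so this is no independent evidence. For 503 pairs of 3′ splice sites up to 12 bases apart with the same flanking exons, 367 pairs had the same sign and 106 the opposite one, with r = 0.618. For 1917 pairs of neighbouring cassette exons with at least 100 reads, 952 had the same sign and 870 the opposite one, with r = 0.0565. These pairs share gene and libraries.

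In 12 of these neighbouring pairs both exons differed by at least 0.30 in one direction, 9 higher and 3 lower. In the death receptor gene FAS both exons were lower, at 0.38 against 0.77 and 0.25 against 0.71. In the ubiquitin-conjugating enzyme gene UBE2F 3 successive exons were lower, at 0.36 against 0.68, 0.42 against 0.82 and 0.28 against 0.59, and 2 further ones were higher, at 0.59 against 0.25 and 0.82 against 0.38. Pairs that were higher included ATG4B (0.73 against 0.43, and 0.66 against 0.24), FAM219B (0.61 against 0.2, and 0.66 against 0.25), ST7L (0.94 against 0.52, and 0.84 against 0.38) and MARK3.

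Shares were similar across lengths of the upstream intron. The share at 0.10 or more was 48.9% for introns under 500 bases, 48.9% from 500 to below 2000, 50.7% from 2000 to below 10000 and 50.9% at 10000 or more. Members in protein-coding genes, 19472 of them, had a share of 49.9%, 317 listed as pseudogene had 53.9% and 194 listed as lincRNA had 45.4%. The trinucleotides before the exons were not analysed here.

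Expression of the host genes has replicates. FPKM was not used to choose the exons, but a read limit on each side was. The ratio of these reads was correlated with the dox+ expression ratio (Spearman's rho 0.55), so the choice was not free of expression. Host expression was tested with limma on log2(FPKM + 1) over 15179 genes whose mean reached 1 FPKM. The SD of the log2 fold change was 0.281 over the host genes and 0.446 over all genes tested. The part of the read limit in this difference was not tested. At an adjusted p below 0.05, 8 of all genes (0.0527%) were called, and 1 of 7039 host genes. At an unadjusted p below 0.05, 288 host genes were higher and 187 lower, 6.75% beside 6.78% of all genes tested. The split followed the scaling, with 164 and 242 under median-ratio scaling and 255 and 273 under quantile normalization. Leaving out a library changed the counts as well. They were 179 higher and 150 lower without WT dox+ replicate 1, and 179 and 103 without WT dox+ replicate 2. More host genes were higher than lower in both of these leave-out fits, while more were lower under both scalings. Of 793 tested hosts of exons that differed by at least 0.30 with at least 100 reads, none was called by limma at the adjusted threshold and 62 (7.82%) had an unadjusted p below 0.05.

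IL32 was the host gene called. It was at 108 and 106 FPKM in S34F dox+ and at 44.3 and 48.6 FPKM in WT dox+. The groups did not overlap, and the log2 fold change was 1.19 (SE 0.13, limma adjusted p = 0.0431). Without doxycycline the S34F line was at 107 FPKM and the WT line at 45.3 and 49.5 FPKM, a log2 difference of 1.16, so the lines differed by about as much before induction. The adjusted p of IL32 was above 0.05 in 9 of 11 alternative settings, among them leaving out any 1 of the 4 dox+ libraries (0.161 to 0.252).

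Among hosts of the largest differences, the lowest adjusted p was 0.531 (limma). PTPN4 was at 9.09 and 6.91 FPKM in S34F dox+ and 3.38 and 4.76 FPKM in WT dox+. TVP23C-CDRT4 was at 0.55 and 1.08 FPKM against 3.89 and 2.56 FPKM, while TVP23C was at 12.9 and 10.7 FPKM against 9.06 and 10.6 FPKM. Neither PTPN4 nor TVP23C-CDRT4 passed the adjusted threshold.

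Among the named genes with many reads, MDM4 was at 41.7 and 42.5 FPKM in S34F dox+ and 39 and 46.3 FPKM in WT dox+, so the groups overlapped. MPRIP was at 103 and 109 FPKM against 163 and 147 FPKM (log2 fold change -0.54, SE 0.1, limma adjusted p = 0.338). CALD1 was at 194 and 163 FPKM against 120 and 113 FPKM (0.61, SE 0.13, limma adjusted p = 0.418). TNC was at 11.2 and 9.14 FPKM against 2.9 and 3.96 FPKM (1.34, SE 0.22, limma adjusted p = 0.282), and its S34F dox- library, at 7.55 FPKM, was also above both WT dox- libraries, at 3.09 and 2.08 FPKM.

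The direction of the exon difference was nearly uncorrelated with that of the host gene. With 1 exon per gene and at least 100 reads, Pearson's r between the difference in PSI and the log2 fold change was 0.00413 over 5183 genes. For the absolute values of both, over all 6646 genes with 1 exon each, r was 0.0628. Genes in this comparison share the same 4 libraries and are not independent replicates.

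**Figure D5:**
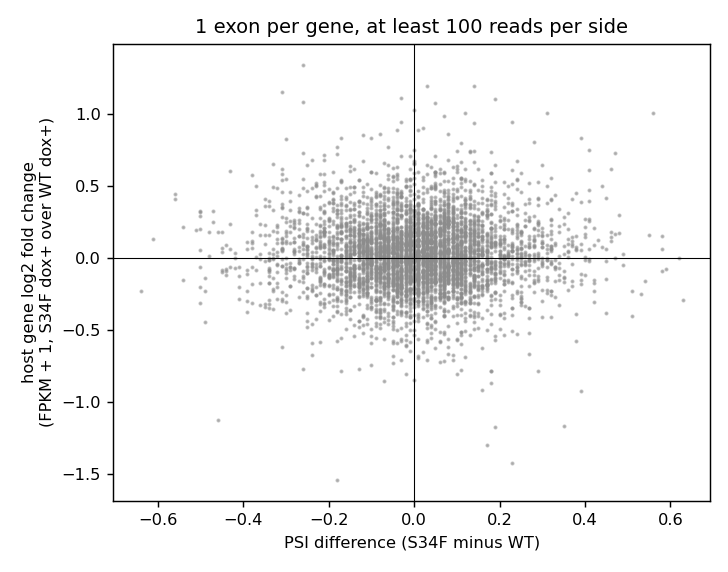
Difference in PSI of 1 exon per gene with at least 100 reads on each side (x axis) against the log2 fold change of its host gene in FPKM + 1, S34F dox+ over WT dox+ (y axis), for 5183 genes. Points lie on all sides of the zero lines, with r = 0.00413.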

How the data were processed

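Total RNA of HCC78 lines was sequenced in paired-end reads by the authors, aligned with STAR 2.3.0 and quantified per gene with RSEM 1.2.29 as deposited FPKM values in 9 libraries. The deposited skipped exon table gives MISO estimates of PSI, a fraction, and whole-number read counts, 1 of each for S34F and WT with no replicates. Its columns of the authors' difference in PSI and Bayes factor were not used, nor were the 4 other event types. The table names no build, and the submitters' notes list GRCh37 and hg19. Entries were reduced from 52837 to 44898 unique events. In events shared by several symbols, only symbols known in RefSeq (GRCh38.p14) to lie on the event's strand were kept. Where there were none, symbols known to lie on the other strand were dropped, unless no symbol would remain. This choice was made after seeing the data and left 910 members with more than 1 symbol. Coordinates are as listed.

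Host expression was tested with limma 3.58.1 (R 4.3.3) with trend on log2(FPKM + 1), for genes whose mean reached 1 FPKM, with all 5 groups fitted together, two-sided, with Benjamini-Hochberg adjustment. The fit and the member rule were tested on simulated data. Exons named were the 10 largest differences in each direction with at least 100 reads, the 5 largest with at least 1000, the 3 largest with 20 to 99, the members in a list of genes from the study's text, its supplements and earlier results, and 2 in each direction with at least 100 reads per other gene list. Some exons that meet this rule are not reported here. Members and lists were chosen with earlier results of these data known. Alternatives covered read and PSI limits, 1 value per site or gene, pseudocount, filter, scaling, libraries in the fit and the replicate number as a block. Trinucleotides were not analysed here because no genome of that build was used.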

Additional observations from a re-analysis of the deposited data

How the results depend on the processing

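The balance of higher and lower exons held, while the number and share of exons at 0.10 or more followed the limits. The share was 49.2% with at least 50 reads on each side, 47.8% with 100 (3242 higher and 2969 lower), and 35.2% with 1000 (351 and 355, the setting in which more were lower). It was 58.4% for a mean PSI between 0.2 and 0.8, 49% with PSI between 0.1 and 0.9 on each side, and 45.8% when 0.10 had to be exceeded. With the median of each gene it was 37.7% (1509 and 1447). At least 10 reads, 1 event per splice site and leaving out events with several PSI pairs, of which there were none, gave 49.7% to 49.9%. As a median over the gene, 6 of 35 named exons had the other sign, CARD8 at -0.06, SDCCAG8 at -0.11, PTPN4 at -0.1, ZFP1 at 0.3, FAM126B at 0.26 and WDR78 at 0.01, because other exons of these genes differed the other way.

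The number of host genes called was 0 with a pseudocount of 0.1, without a filter, with median-ratio scaling and with the 4 dox+ libraries alone, and 0 to 1 when each library was left out, the 1 being another gene than IL32 (without S34F dox+ replicate 1). The adjusted p of IL32 (limma) ranged from 0.0313 to 0.252, with a log2 fold change of 1.12 to 1.25. With median-ratio scaling, the host genes with an unadjusted p below 0.05 split into 164 higher and 242 lower, in place of 288 and 187. Same-numbered replicates of S34F dox+ and WT dox+ share only a number (r = 0.0374 between their deviations), and the replicate block gave 0 host genes called. Of 88 named hosts, 39 changed sign in at least 1 setting, the largest of them at 0.36 in log2 fold change. PSI has no replicates, so its error is unknown.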
